A study of Mus musculus with 96 samples.

Results

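The genes described here encode the aminoacyl-tRNA synthetases of the mouse. They were chosen by name among the protein-coding genes of the count table, as the genes whose symbols follow the pattern of an amino acid letter followed by ars, together with Eprs, Farsa, Farsb, Fars2, Ears2, Pars2 and Tarsl2. Of the genes it found, 37 are described here, among 21970 protein-coding genes and 56748 genes in all. Of these 37, 19 encode cytosolic enzymes, 16 encode mitochondrial enzymes, and Gars and Kars each encode the enzyme of both compartments. The rule itself uses gene names and biotype. RNA-seq libraries came from liver, skeletal muscle and cerebral cortex of mice fed ad libitum (AL) or kept on intermittent fasting (IF). Mice 1-16 were male C57BL/6 animals on normal chow, of which the IF mice were put on a daily fast of 16 h when 6 weeks old and held on it over 4 months. The authors state that these IF mice were sampled as their daily fast ended. The last fast and the months of the regimen therefore cannot be told apart in a difference from AL mice. The labels of mice 25-40 give female animals on AL or IF, and their strain, age and regimen are not given in the sources used here. Each tissue held 8 AL and 8 IF mice of either set, and all 3 tissues of a mouse share its number. The set of mice and the sex cannot be told apart, so the sets are named by mouse number below.

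An aminoacyl-tRNA synthetase joins an amino acid to its matching tRNA, the step at which the genetic code is read into protein. Cytosol and mitochondria hold separate sets of tRNAs, and for most amino acids separate nuclear genes encode the enzyme for each. Mitochondria lack a glutaminyl enzyme of their own and make their glutaminyl-tRNA through the glutamyl enzyme and an amidotransferase. Several cytosolic enzymes are held in a large multi-synthetase complex on the scaffold proteins Aimp1, Aimp2 and Eef1e1. Many of the cytosolic genes are known targets of ATF4, the transcription factor made when amino acids are short or the endoplasmic reticulum is under stress.

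Library totals ran from 26097314 to 49838004 counted reads over 95 libraries, with a median of 36132954. The cortex library labelled AL mouse 1 did not match the sex of its label, the only one of 96 libraries to do so, and it was left out of all values unless it is named. Defining markers of each labelled tissue were present in every group. The summed hepatocyte list, which holds Ttr, a gene also abundant in choroid plexus, reached 3104 CPM in an AL and 3367 CPM in an IF cortex of mice 1-16, and 119 CPM in an AL and 4271 CPM in an IF cortex of mice 25-40. In liver of mice 1-16, the summed level of 5 erythrocyte genes was 362 to 956 CPM (median 569) under AL and 667 to 6879 CPM (median 2070) under IF, with none of the 5 near 0. Marker sums are plain CPM (counts scaled to the library total). CPM of single genes below is also scaled by TMM factors unless it is called plain. The 3 endothelial genes summed to 33.1 to 49.99 CPM under AL and 53.4 to 91.3 CPM under IF there, and 5 adipocyte genes to 17 to 40.8 CPM under AL and 4.36 to 17.8 CPM under IF, with up to 2 of the 5 under 0.1 CPM. The p-values below set a difference between groups against the spread between these mice. The main fits held no term for such marker genes. In muscle of mice 1-16, the adipocyte genes summed to 30.1 to 331 CPM under AL and 112 to 1860 CPM under IF, again with none near 0. All 37 synthetase genes passed the filter on low counts in every fit. On the coordinates of the table, 20 of the 37 overlapped another gene and 12 a protein-coding gene, among them Hars and Hars2, which overlap each other on opposite strands, Mars1 with Ddit3, Fars2 with Nrn1 and Lyrm4, and Tarsl2 with Tm2d3. The libraries kept strand, but the strand setting of the counting was not stated, so counts of such pairs may be shared.

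The promoters show which members carry letters of the ATF4 response. A C/EBP-ATF composite element was searched as TTGCATCA on both strands in RefSeq promoter windows (250 bases before to 50 after the transcription start, GRCm38.p6), of which 29 windows matched 28 of the 37 genes by symbol. The windows of Aars, Iars, Tars and Yars held it, against 0.895% of all 32851 windows. The stretch around each match is printed 5′ to 3′ on the gene's strand with the match in capitals, because these are the members whose values can be read against the ATF4 list further on. The Aars stretch is chr8:111033704-111033763 on the plus strand, that of Iars is chr13:49682111-49682170 on the plus strand, that of Tars is chr15:11399640-11399699 on the minus strand, and that of Yars is chr4:129189880-129189939 on the plus strand.
Aars: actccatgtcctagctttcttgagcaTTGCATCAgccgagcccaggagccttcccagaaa
Iars: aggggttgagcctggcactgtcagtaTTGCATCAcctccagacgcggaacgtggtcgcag
Tars: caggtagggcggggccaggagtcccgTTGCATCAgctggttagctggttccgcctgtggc
Yars: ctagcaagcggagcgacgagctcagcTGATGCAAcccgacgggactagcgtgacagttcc
The looser form TGATGNAA, which contains TGATGCAA, was found in the same 4 genes and in Gars, against 3.97% of all windows. The E-box CACGTG, the letters bound by Myc and its relatives, was found in Aars, Ears2, Farsb, Iars and Tars, against 7.15% of all windows. A match is a description of the letters only.

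Levels were first compared between members within a tissue, per kilobase of the gene length given by the authors (RPKM), in AL mice. Cytosolic genes were the more abundant. In muscle of mice 1-16, the 19 cytosolic genes ran from 6.24 to 22.3 RPKM (median 10.3) and the 16 mitochondrial genes from 0.451 to 7.61 RPKM (median 3.60). The corresponding medians were 7.87 and 2.96 RPKM in liver and 11.03 and 4.67 RPKM in cortex. The highest members of muscle were Kars, the lysyl enzyme of both compartments, at 25.5 ± 1.34 RPKM (SD, n = 8), Sars, the cytosolic seryl enzyme, at 22.3 ± 0.994 RPKM, and Gars, the glycyl enzyme of both compartments, at 22.2 ± 2.18 RPKM. In cortex they were Sars at 45.6 ± 2.56 RPKM (SD, n = 7), Nars, the asparaginyl enzyme, at 41.0 ± 2.61 RPKM, and Gars at 40.04 ± 1.75 RPKM. In liver a mitochondrial gene came first. Lars2, the mitochondrial leucyl enzyme, stood at 34.2 ± 28.9 RPKM (SD, n = 8), ahead of Aars, the cytosolic alanyl enzyme, at 22.4 ± 1.51 RPKM and Mars1, the cytosolic methionyl enzyme, at 18.6 ± 2.296 RPKM. With that SD, the place of Lars2 above Aars was within the spread between mice.

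The lowest members were mitochondrial with 1 exception. Mars2, the mitochondrial methionyl enzyme, was last in liver at 0.235 ± 0.0303 RPKM and in muscle at 0.451 ± 0.0832 RPKM. Wars2, the mitochondrial tryptophanyl enzyme, was last in cortex at 0.479 ± 0.0716 RPKM. The other low members were Tarsl2 (0.709 ± 0.153 RPKM) and Pars2 (0.709 ± 0.296 RPKM) in liver, Nars2 (0.495 ± 0.104 RPKM) and Wars2 (0.695 ± 0.134 RPKM) in muscle, and Ears2 (1.07 ± 0.106 RPKM) and Mars2 (1.11 ± 0.105 RPKM) in cortex. Tarsl2, a cytosolic threonyl enzyme related to Tars, was the exception. AL mice 25-40 had Mars2 last in liver (0.309 ± 0.0895 RPKM) and muscle (0.649 ± 0.0717 RPKM) and Wars2 last in cortex (0.484 ± 0.105 RPKM). The 3 highest of mice 25-40 were Aars (19.3 ± 2.87 RPKM), Lars2 (14.4 ± 4.92 RPKM) and Sars (13.2 ± 1.57 RPKM) in liver, Kars (26.7 ± 0.788 RPKM), Gars (22.0 ± 1.60 RPKM) and Nars (21.6 ± 2.05 RPKM) in muscle, and Sars (47.9 ± 2.57 RPKM), Nars (42.7 ± 3.02 RPKM) and Gars (42.5 ± 2.07 RPKM) in cortex.

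**Figure D1:**
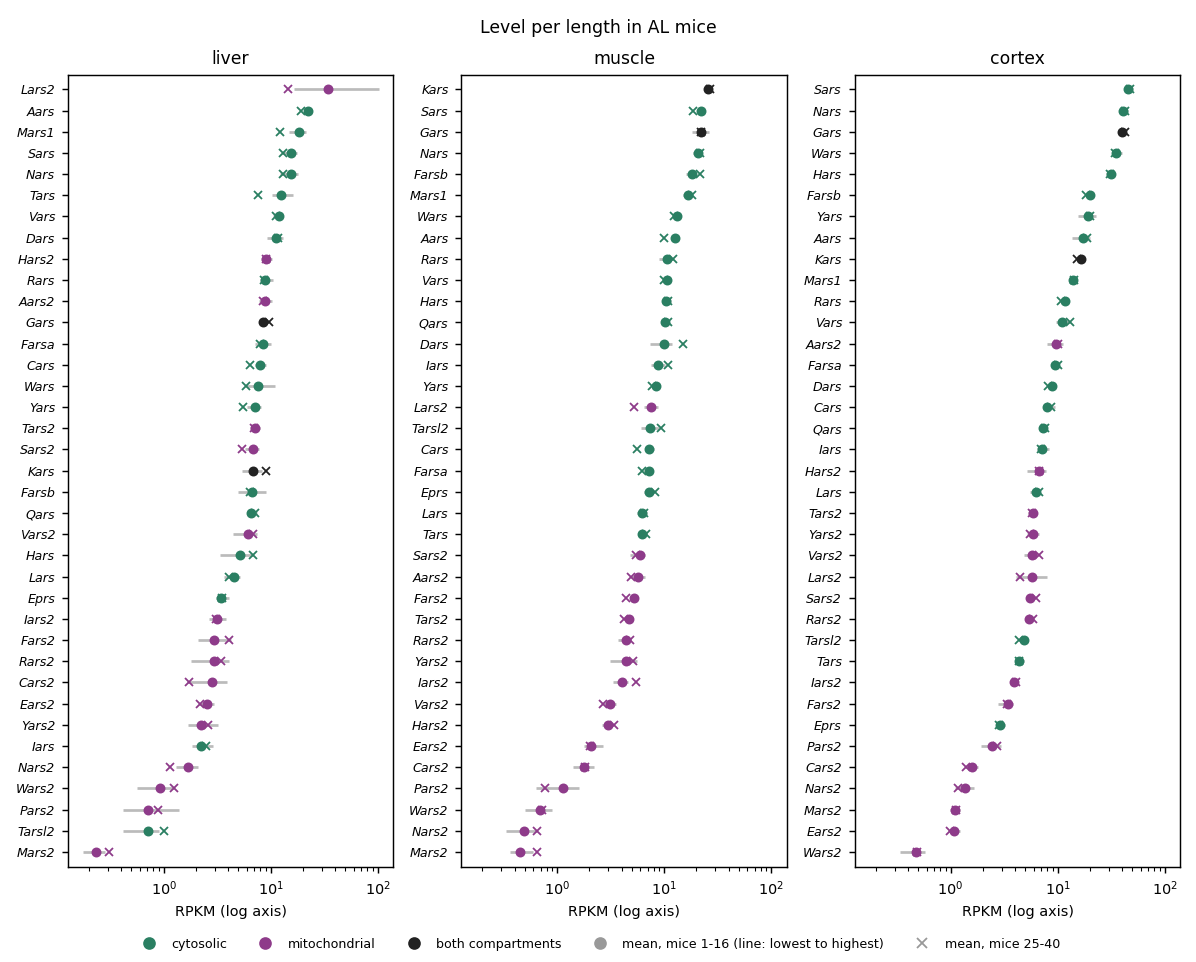
Level per length (RPKM, log axis) of the 37 genes in liver, muscle and cortex of AL mice, ordered by the mean of mice 1-16 (circles, with a line from the lowest to the highest mouse); crosses are the means of mice 25-40. Cytosolic genes fill most of the upper part of each panel, Lars2 leads in liver with a wide range that runs up to AL mouse 7, and Mars2 or Wars2 is last.

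Between tissues of the same AL mice, several members differed by large factors. These comparisons depend on scaling, since TMM scaling raised liver and muscle against cortex relative to plain CPM, and the median member moved from -0.21 on plain CPM to 0.63 with TMM for liver over cortex and from -0.20 to 0.87 for muscle over cortex in mice 1-16. Only directions shared by TMM, RLE and plain CPM are therefore given. In mice 1-16, edgeR's quasi-likelihood test with mouse as a block called 36 of 37 members between liver and cortex (83.4% of all genes tested), 29 between liver and muscle (79.2%) and 30 between muscle and cortex (80.2%). In mice 25-40 the counts were 34 (84.0% of all genes), 31 (79.1%) and 30 (80.5%). Of the members, that is 97.3%, 78.4% and 81.1% in mice 1-16 and 91.9%, 83.8% and 81.1% in mice 25-40, so most genes and most members differed between these tissues. Called in both sets of mice with 1 direction under all 3 scalings, 11 members were higher and 12 lower in liver than in cortex, against 5154 (27%) and 8274 (43.3%) of the 19113 genes tested in both sets. Between liver and muscle, 7 were higher and 19 lower in liver (33.9% and 35.8% of all genes), and between muscle and cortex, 14 were higher and 2 lower in muscle (21.4% and 40.9% of all genes). Tarsl2 had a log2 difference (TMM) of -3.60 for liver over muscle in mice 1-16, at 4.65 against 48.2 plain CPM, and of -3.48 in mice 25-40 (6.95 against 64.9 plain CPM). Lars2 went the other way, with a log2 difference of 1.70 in mice 1-16 (363 against 82.3 plain CPM) and 1.15 in mice 25-40 (163 against 59.5 plain CPM). Eprs, which carries the glutamyl and prolyl activities of the cytosol on a single chain, was higher in muscle than in cortex by log2 differences of 2.34 in mice 1-16 and 2.45 in mice 25-40 with TMM, and of 1.27 and 1.57 on plain CPM. Hars, the cytosolic histidyl enzyme, was lower in liver than in cortex, with log2 differences of -1.85 and -1.51 with TMM and of -2.65 and -2.13 on plain CPM in the respective sets.

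IF liver of mice 1-16 showed genes moving in both directions. Compared with AL, 18 of 37 members passed an adjusted p of 0.05 (edgeR's quasi-likelihood test), against 44.6% of the 16204 genes tested. The share was near that of all genes. Of the 18, 8 rose (23.5% of all genes rose) and 10 fell (21.1% of all genes fell). The median log2 fold change of the members was -0.10, against 0.06 for all genes tested. Both enzymes that serve both compartments rose, as did 3 cytosolic and 3 mitochondrial genes, while 5 cytosolic and 5 mitochondrial genes fell. Fewer cells of a type and less RNA per cell cannot be told apart in such bulk tissue.

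Fars2, Hars and Kars rose most. Fars2 (chr13:36301395-36910254, GRCm39), the single-chain mitochondrial phenylalanyl enzyme, measured 12, 16.1 and 24.4 CPM at the lowest, median and highest AL mouse and 20.3, 30.3 and 39.7 CPM at the corresponding IF mice. Of the 8 IF mice, 6 lay above every AL mouse, and the log2 fold change was 0.79 ± 0.14 (SE, adjusted p = 8.27e-05). Hars (chr18:36899581-36916258) measured 8.15, 11.9 and 16.8 CPM under AL and 17.5, 20.9 and 26.2 CPM under IF. Its groups did not overlap, and its log2 fold change was 0.77 ± 0.13 (adjusted p = 4.44e-05). Kars (chr8:112720075-112737955) measured 24.4, 31 and 36.8 CPM under AL and 42.6, 47.2 and 63.9 CPM under IF. Here too every IF mouse lay above every AL mouse, the log2 fold change being 0.71 ± 0.11 (adjusted p = 8.82e-06). The cytosolic phenylalanyl enzyme is built of the subunits Farsa and Farsb, whose log2 fold changes were -0.05 and -0.14 with neither called, and that of Hars2, the mitochondrial histidyl enzyme, was -0.03.

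Iars2, Tarsl2 and Vars2 followed. Iars2 (chr1:185016923-185061593), the mitochondrial isoleucyl enzyme, measured 23.7, 27.4 and 33.8 CPM under AL and 29.8, 42.6 and 50.6 CPM under IF, with 7 of 8 IF mice above all AL mice and a log2 fold change of 0.60 ± 0.11 (adjusted p = 9.15e-05). Its cytosolic counterpart Iars rose as well (0.37 ± 0.12, adjusted p = 0.0152). Tarsl2 (chr7:65294646-65341839) measured 2.79, 4.71 and 6.07 CPM under AL and 5.19, 6.83 and 9.44 CPM under IF, a log2 fold change of 0.56 ± 0.17 (adjusted p = 0.00926). Its groups overlapped, with 6 IF mice above all AL mice. Tars, the main cytosolic threonyl enzyme, measured 61.4, 73.3 and 96.0 CPM under AL and 57.9, 71.9 and 78.6 CPM under IF and was not called (-0.06 ± 0.10, adjusted p = 0.671). Vars2 (chr17:35966526-35978484), the mitochondrial valyl enzyme, measured 24.1, 33.3 and 40.3 CPM under AL and 34.9, 45.3 and 51.8 CPM under IF. Its log2 fold change was 0.39 ± 0.12 (adjusted p = 0.00891), and that of the cytosolic Vars was -0.17 without a call. Gars completed the group that rose, at 0.35 ± 0.10 (adjusted p = 0.00451).

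Among the called members, Wars, Nars2 and Dars fell most. Wars (chr12:108825956-108860100), the cytosolic tryptophanyl enzyme, which interferon induces, measured 20.5, 24.3 and 37.9 CPM under AL and 12.3, 15.1 and 24.0 CPM under IF. Of the IF mice, 7 lay below all AL mice, and the log2 fold change was -0.68 ± 0.15 (adjusted p = 0.000548). The mitochondrial Wars2 had a log2 fold change of 0.32 ± 0.19 and was not called. Dars (chr1:128291444-128345105), the cytosolic aspartyl enzyme, fell from 40.4, 50.02 and 57.0 CPM to 28.4, 32.04 and 42.7 CPM, a log2 fold change of -0.53 ± 0.10 (adjusted p = 0.000135), again with 7 IF mice below all AL mice.

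Among other members that fell, Nars2 (chr7:96600712-96713965), the mitochondrial asparaginyl enzyme, went from 9.11, 11.2 and 14.7 CPM to 5.35, 7.68 and 9.14 CPM, a log2 fold change of -0.59 ± 0.14 (adjusted p = 0.00152). The cytosolic Nars stood at -0.15 without a call. Cars2 (chr8:11563977-11600783), the mitochondrial cysteinyl enzyme, measured 11.9, 20.8 and 28.6 CPM under AL and 11.1, 15.4 and 18.2 CPM under IF, a log2 fold change of -0.50 ± 0.14 (adjusted p = 0.00719), and its groups overlapped. The cytosolic Cars stood at -0.17 without a call. Ears2 (chr7:121636436-121666486), the mitochondrial glutamyl enzyme, measured 11, 12.7 and 15.2 CPM under AL and 6.25, 10.6 and 11.9 CPM under IF, a log2 fold change of -0.42 ± 0.13 (adjusted p = 0.0133), while Eprs stood at -0.11 without a call. Sars2 (chr7:28441417-28453296), the mitochondrial seryl enzyme, measured 19.0, 23.6 and 25.8 CPM under AL and 13.3, 18.8 and 23.3 CPM under IF, a log2 fold change of -0.30 ± 0.11 (adjusted p = 0.0286), and the cytosolic Sars stood at -0.02 without a call. The remaining 4 members that fell did so by 0.26 to 0.28 on the log2 scale, namely Tars2, Aars, Qars and Mars1. Of these, Qars did not overlap between groups (40.6 to 48.7 CPM under AL and 31.5 to 38.1 CPM under IF). In all, 3 members did not overlap, 8.11% against 14.9% of all genes. Pars2, the mitochondrial prolyl enzyme, had a log2 fold change of -0.63 ± 0.36 and was not called (adjusted p = 0.158), at 0.299 to 4.30 CPM over all 16 mice.

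**Figure D2:**
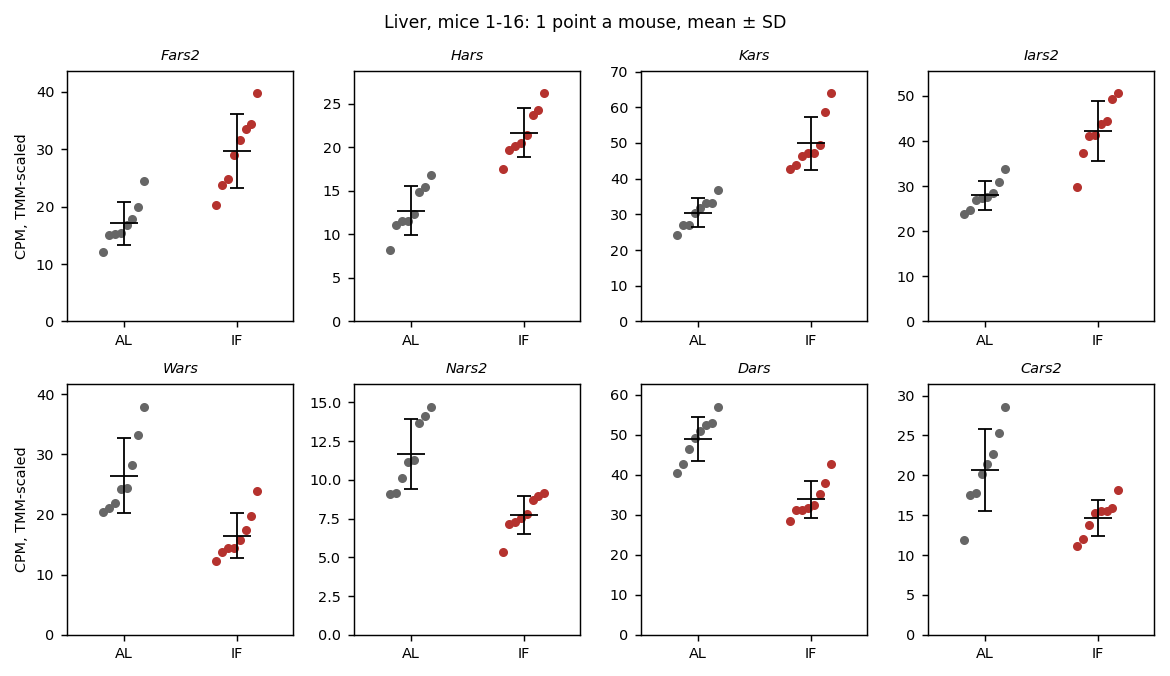
CPM of 8 members in liver of mice 1-16, 1 point a mouse in rising order, with the mean and SD of 8 AL and 8 IF mice. All IF mice lie above all AL mice for Hars and Kars, 6 or 7 of the 8 IF mice lie beyond all AL mice for Fars2, Iars2, Wars, Nars2 and Dars, and 1 does for Cars2.

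Within pairs for 1 amino acid, the cytosolic and the mitochondrial gene had the same sign in 9 of 16 pairs, and both were called in 1 pair, Iars with Iars2 (both rose). Of the 8 enzymes of the multi-synthetase complex, 5 were called, where 44.6% of all genes were: Kars and Iars rose, and Dars, Qars and Mars1 fell. The scaffold genes also divided, with Aimp2 rising (0.68 ± 0.24, adjusted p = 0.0221), Eef1e1 falling (-0.82 ± 0.17, adjusted p = 0.000278) and Aimp1 at 0.10 without a call. Summed over the 19 cytosolic genes, the level was 917 to 1023 CPM (median 969) under AL and 793 to 926 CPM (median 889) under IF. The 15 mitochondrial genes other than Lars2 summed to 289 to 326 CPM (median 300.0) and 278 to 369 CPM (median 321), and these sums overlapped between the diets. With the score of the 5 erythrocyte genes as a covariate, 6 of the 18 calls remained: Kars, Hars, Fars2 and Iars2 rose, and Wars and Dars fell. With IF mice 9 and 10, the highest in erythrocyte genes, left out, 17 members were called. The part of the endothelial and adipocyte genes in these results was not tested.

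Lars2 varied widely between livers. In mice 1-16 it measured 182, 236 and 1133 CPM under AL and 138, 281 and 636 CPM under IF at the lowest, median and highest mouse. The groups overlapped, and the log2 fold change was -0.12 ± 0.45 (adjusted p = 0.845). Without AL mouse 7, which holds the highest value, it was 0.36 (adjusted p = 0.440), so that library sets the sign. Its coefficient of variation among AL mice was 84.5%, against a median of 12.2% over the 37 members. Without AL mouse 7, left out after the values were seen, the coefficient was 40.1%, below the 45.4% of Pars2 and above the median of 12.5%, and the level per length was 24.5 ± 9.83 RPKM (SD, n = 7). In liver of mice 25-40 it measured 109, 136 and 258 CPM under AL and 106, 138 and 200 CPM under IF, with a coefficient of variation of 34.1% among AL mice. The corresponding medians of muscle were 85.2 (AL) and 60.6 CPM (IF) in mice 1-16 and 58.6 and 72.4 CPM in mice 25-40, and those of cortex were 59.3 and 64.6 CPM and 47.4 and 44.3 CPM.

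**Figure D3:**
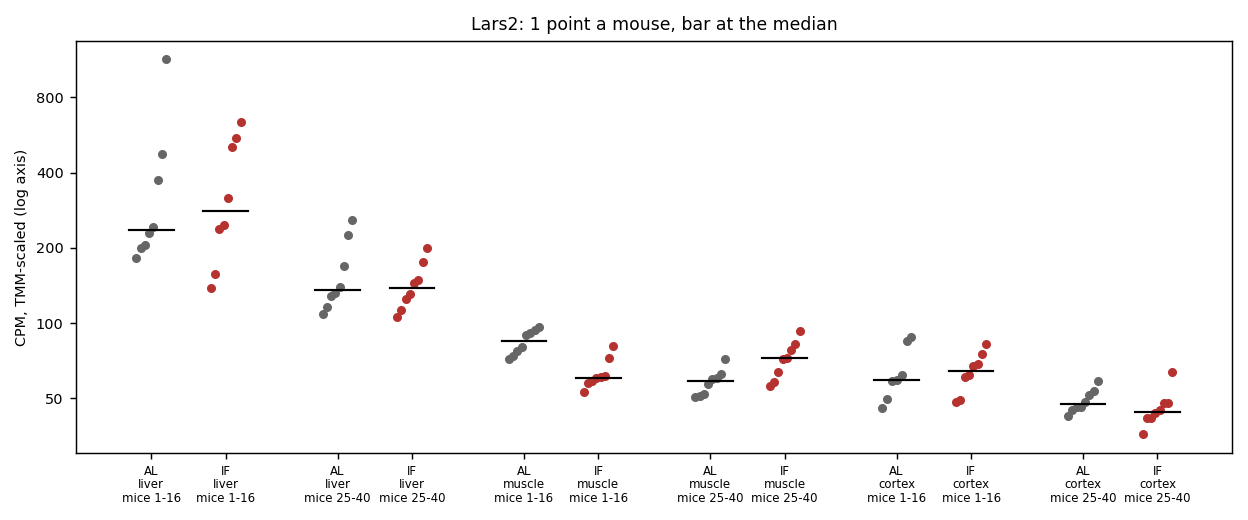
Lars2 in every library (CPM, log axis), 1 point a mouse with a bar at the median, by tissue, set of mice and diet. AL mouse 7 stands at 1133 CPM in liver while all other AL livers of mice 1-16 lie at 473 CPM or below, and muscle of mice 1-16 has lower values under IF where muscle of mice 25-40 has higher ones.

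In muscle of mice 1-16, 5 of 37 members were called, 13.5% against 23.0% of the 15025 genes tested. The median log2 fold change was 0.04 over the members and 0.01 over all genes. Iars2 and Farsb rose (11.5% of all genes rose), and Lars2, Aars2 and Farsa fell (11.6% of all genes fell). Iars2 measured 29.6, 35.5 and 41.0 CPM under AL and 40.8, 45.4 and 49.6 CPM under IF, a log2 fold change of 0.33 ± 0.07 (adjusted p = 0.00122). All but 1 of the IF mice lay above every AL mouse. The catalytic subunit Farsa and the partner subunit Farsb of the phenylalanyl enzyme moved apart. Farsb measured 42.4, 46.5 and 52.6 CPM under AL and 45.5, 56.1 and 64.9 CPM under IF (0.23 ± 0.06, adjusted p = 0.0139), and Farsa 29.3, 32.8 and 35.4 CPM under AL and 26.1, 28.9 and 30.7 CPM under IF (-0.20 ± 0.06, adjusted p = 0.0139). Fars2 was at 0.0014 without a call. Lars2 fell from 72.0, 85.2 and 96.5 CPM to 53.1, 60.6 and 80.8 CPM (-0.42 ± 0.08, adjusted p = 0.00104), with 6 IF mice below all AL mice, and the cytosolic Lars stood at 0.04. Aars2, the mitochondrial alanyl enzyme, fell from 23.4, 27 and 31.8 CPM to 19.4, 22.6 and 24.4 CPM (-0.28 ± 0.07, adjusted p = 0.00822), and the cytosolic Aars stood at -0.11 (adjusted p = 0.118). Tars stood at 0.13 ± 0.06 (adjusted p = 0.0868). No member separated the groups fully, against 4.08% of all genes, and 13 had an unadjusted p under 0.05 (35.1% against 35.3% of all genes). With the score of the 5 adipocyte genes as a covariate, 8 members were called, these 5 among them.

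Cortex of mice 1-16 had 3 members called, 8.11% against 7.21% of the 18462 genes tested, over 7 AL and 8 IF mice. Vars2 measured 26.5, 31 and 36.1 CPM under AL and 32.8, 38.4 and 40.6 CPM under IF (0.25 ± 0.07, adjusted p = 0.0374), and with Qars it rose (3.79% of all genes rose). Qars, the cytosolic glutaminyl enzyme (chr9:108384905-108393140), measured 45.6, 48.7 and 50.5 CPM under AL and 52.3, 56.0 and 61.9 CPM under IF (0.22 ± 0.05, adjusted p = 0.0139). It was the only member whose groups did not overlap, against 1.05% of all genes. Farsb (chr1:78394612-78465534) measured 48.7, 53.9 and 56.6 CPM under AL and 41.8, 46.1 and 49.9 CPM under IF (-0.21 ± 0.06, adjusted p = 0.0308) and was the 1 that fell (3.43% of all genes fell). At an unadjusted p under 0.05 there were 11 members (29.7% against 23.8% of all genes). The paired enzymes Vars and Farsa stood at 0.23 (adjusted p = 0.0679) and 0.17 (adjusted p = 0.0628), and Fars2 at -0.02. Called or not, 27 of 37 members were higher under IF, 73% against 48.9% of all genes, and their median log2 fold change was 0.07 against -0.0049 for all genes. The 4 oligodendrocyte genes summed to 3652 to 5693 CPM (median 4468) under AL and 4943 to 8125 CPM (median 6528) under IF there, and the 3 endothelial genes to 39.8 to 52.4 CPM (median 42.9) and 30.5 to 43.9 CPM (median 39.3), with none near 0, and their part in these results was not tested. The 6 neuron genes had medians of 8495 and 8504 CPM. These calls were the least stable. None of the 3 was called with the library labelled AL mouse 1 included or with the replicate number as a block. Qars was called with each of the 15 libraries left out in turn, Farsb in 9 of these 15 fits and Vars2 in 4.

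**Figure D4:**
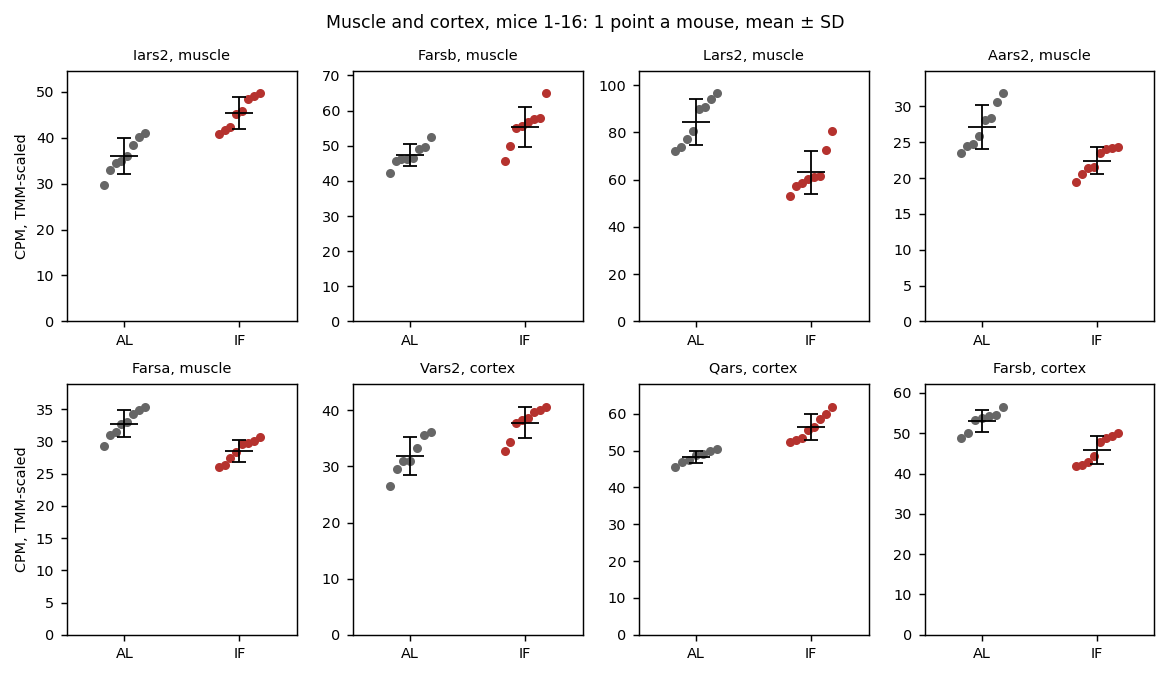
CPM of the 5 members called in muscle and the 3 called in cortex of mice 1-16, 1 point a mouse in rising order, with the mean and SD of each diet (8 AL and 8 IF mice in muscle, 7 AL and 8 IF mice in cortex). The groups are apart for Qars in cortex and overlap by at least 1 mouse in the other 7 panels.

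In mice 25-40, 0 of 37 members were called in any tissue by edgeR's quasi-likelihood test. All genes gave few calls too: 0 of 15938 in liver (0%), 1 of 15308 in muscle (0.00653%) and 2 of 18403 in cortex (0.0109%). At an unadjusted p under 0.05, the members numbered 5 in liver (13.5% against 5.77% of all genes), 6 in muscle (16.2% against 10.7%) and 5 in cortex (13.5% against 11.2%). DESeq2 called 0, 0 and 1 members, the last being Cars2. In liver, Sars measured 51.4, 70.9 and 74.5 CPM under AL and 64.0, 89.0 and 113 CPM under IF (0.38 ± 0.11, adjusted p = 0.785), and Yars, the cytosolic tyrosyl enzyme, 26, 32.3 and 39.9 CPM under AL and 34.1, 42.9 and 48.4 CPM under IF (0.36 ± 0.11, adjusted p = 0.785). Tars measured 37.6, 44.4 and 57.9 CPM under AL and 39.4, 53.8 and 64.6 CPM under IF (0.19 ± 0.12, adjusted p = 0.869). In cortex, Cars2 measured 8.68, 10.3 and 11.2 CPM under AL and 11.4, 12.3 and 13.9 CPM under IF. Its groups did not overlap, as in 0.0598% of all genes, and none did in liver (0.0251% of all genes) or muscle (0.0784%). For Cars2, edgeR gave an adjusted p of 0.201 for a log2 fold change of 0.29 ± 0.07. Named after their values were seen, Sars, Yars and Cars2 stand here as the members with the smallest unadjusted p in liver and cortex.

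The response of the members to the diet differed between the sets of mice in liver. The interaction of diet and set, coded as the log2 fold change of mice 25-40 minus that of mice 1-16, was called for 17 of 37 members, 45.9% against 23.7% of the 17658 genes tested. It was positive for 14 members (12.8% of all genes) and negative for 3 (10.9% of all genes). The median interaction was 0.25 over the members and -0.04 over all genes. Wars had the largest, 0.90 ± 0.20 (adjusted p = 0.000794), with log2 fold changes of -0.68 in mice 1-16 and 0.18 in mice 25-40. Ears2 followed at 0.80 ± 0.20 (adjusted p = 0.00251, fold changes of -0.42 and 0.35). Hars (-0.66 ± 0.20, adjusted p = 0.015), Kars (-0.53 ± 0.16, adjusted p = 0.0123) and Iars2 (-0.48 ± 0.16, adjusted p = 0.0224) were the negative ones, with log2 fold changes of 0.07, 0.15 and 0.08 in mice 25-40. The others with a called interaction were Qars, Lars, Sars, Tars2, Aars, Vars, Sars2, Yars, Dars, Cars2, Mars1 and Nars2, between 0.28 and 0.56. Of these, Lars, Sars, Vars and Yars were called in neither set alone. Fars2, which rose most in mice 1-16, was not among them. Each fit shared its control mice with no other set, so the sets are independent mice; 11 of the 37 members had the same sign of fold change in both, 29.7% against 57.4% of all genes tested in both. In muscle this was 11 of 37 members (29.7% against 43.6% of all genes), and in cortex 26 of 37 (70.3% against 56.1%). The markers of other cell types also moved with the diet differently in the livers of the sets. The erythrocyte genes had medians of 569 (AL) and 2070 CPM (IF) in mice 1-16, and of 522 (115 to 1113) and 512 CPM (261 to 1031) in mice 25-40. The endothelial genes had medians of 37.2 and 64.8 CPM in mice 1-16, and of 41.5 (33.9 to 51.9) and 33.7 CPM (18.04 to 60.04) in mice 25-40. The adipocyte genes had medians of 27.97 and 8.02 CPM in mice 1-16, and of 4.17 (2.43 to 18.3) and 2.254 CPM (1.49 to 5.97) in mice 25-40. Of the 5 adipocyte genes, 2 (AL) and 1 (IF) lay under 0.1 CPM in every liver of mice 1-16, and 1 and 2 in mice 25-40. Their sums therefore do not speak for all 5 genes. The part of these erythrocyte, endothelial and adipocyte genes in the interaction was not tested.

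In muscle, 6 members had a called interaction (16.2% against 14.2% of all genes). Lars2 had the largest at 0.74 ± 0.14 (adjusted p = 0.00039), since it fell in mice 1-16 and had a log2 fold change of 0.31 ± 0.10 (adjusted p = 0.312) in mice 25-40, where it measured 50.9, 58.6 and 71.7 CPM under AL and 55.9, 72.4 and 92.9 CPM under IF. Aars2 (0.48 ± 0.10, adjusted p = 0.00144), Farsa (0.38 ± 0.09, adjusted p = 0.00347), Aars (0.28 ± 0.08, adjusted p = 0.0107) and Wars (0.28 ± 0.08, adjusted p = 0.0118) were positive as well. Iars2 was negative (-0.42 ± 0.10, adjusted p = 0.00304), with log2 fold changes of 0.33 in mice 1-16 and -0.10 in mice 25-40. In cortex, the test called 0 members, against 2.03% of all genes, and 3 members had an unadjusted p under 0.05 (8.11% against 15.4% of all genes). DESeq2 was not run on interactions.

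**Figure D5:**
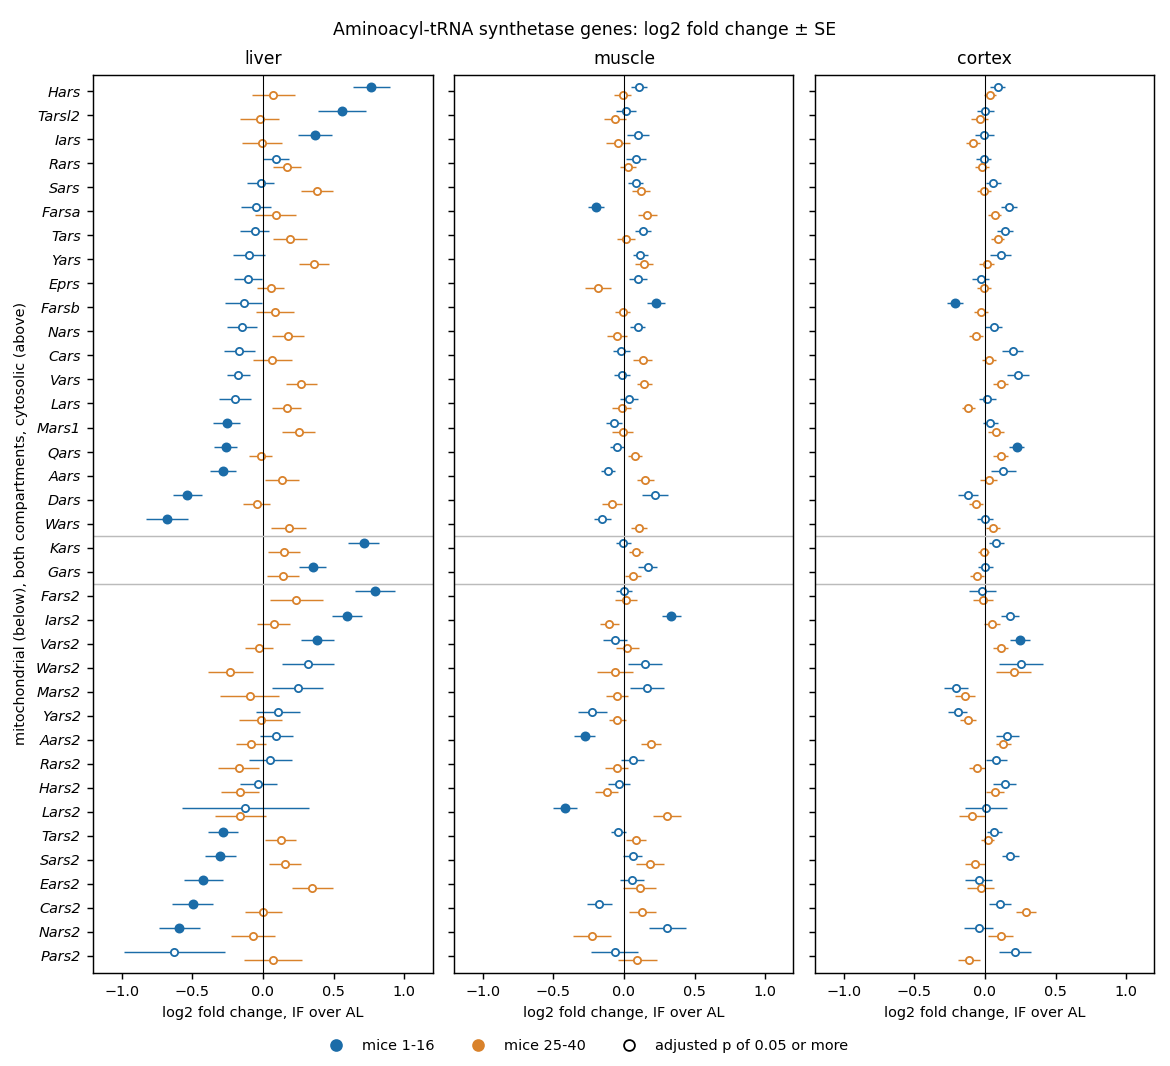
Log2 fold change of IF over AL with its SE for the 37 genes in liver, muscle and cortex, blue for mice 1-16 and orange for mice 25-40, filled where the adjusted p is under 0.05. Filled points are blue only, 18 in liver, 5 in muscle and 3 in cortex, and the liver panel spans the widest range in mice 1-16 (-0.68 to 0.79).

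The tissues of mice 1-16 also differed in response. The interaction of diet and tissue, fitted with mouse as a block, was called for 19 members for liver minus cortex (51.4% against 26.7% of all genes), 15 for liver minus muscle (40.5% against 31%) and 1 for muscle minus cortex (2.7% against 3.80%). For liver minus cortex, the largest were 0.80 ± 0.15 for Fars2, 0.67 ± 0.13 for Hars and 0.61 ± 0.11 for Kars on the positive side and -0.73 ± 0.14 for Wars, -0.62 ± 0.17 for Cars2 and -0.61 ± 0.18 for Nars2 on the negative side (adjusted p of at most 0.01165). For liver minus muscle they were 0.75 ± 0.15 for Fars2, 0.67 ± 0.10 for Kars and 0.63 ± 0.13 for Hars, and -0.95 ± 0.18 for Nars2, -0.80 ± 0.14 for Dars and -0.57 ± 0.14 for Wars. Of the members named here, Cars2 and Nars2 are among the liver calls lost with the erythrocyte covariate (adjusted p = 0.0651 and 0.131 in liver alone). That covariate itself moved with the diet in liver. The erythrocyte genes had medians of 569 (AL) and 2070 CPM (IF) in liver, 346 and 437 CPM in muscle, and 261 and 246 CPM in cortex, and the endothelial genes had medians of 37.2 and 64.8, 128 and 120.2, and 42.9 and 39.3 CPM. The adipocyte genes had medians of 27.97 and 8.02 CPM in liver, 93.2 and 714 CPM in muscle, and 0.161 and 0.148 CPM in cortex. Of the 5 adipocyte genes, 2 (AL) and 1 (IF) lay under 0.1 CPM in every liver, and 3 and 2 in every cortex. The part of these markers in the interactions was not tested. Farsb, which rose in muscle and fell in cortex, gave the 1 call for muscle minus cortex (0.47 ± 0.13, adjusted p = 0.0411), which RLE factors did not give. In mice 25-40, the 3 interactions called 0 members (0%, 0.0047% and 0.0047% of all genes for liver minus cortex, liver minus muscle and muscle minus cortex), and 5, 3 and 2 members had an unadjusted p under 0.05 (9.57%, 7.74% and 5.45% of all genes).

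No member was called in all 3 tissues of mice 1-16, where 1.14% of the 13019 genes tested in all 3 were. Farsb, Iars2, Qars and Vars2 were called in 2 (14.7% of all genes), 18 members in 1 (45.5%) and 15 in none (38.7%). Iars2 rose in liver and muscle and Vars2 in liver and cortex, whereas Qars fell in liver and rose in cortex. The liver calls of Qars and Vars2 were lost with the erythrocyte covariate. The cortex calls of Farsb, Qars and Vars2 were lost with AL mouse 1 included or with the replicate number as a block.

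Genes that work beside the synthetases were read from lists. The 25 genes of a list of ATF4 and its targets gave 13 calls among 23 tested in liver of mice 1-16, 10 of them higher, where 44.6% of all genes were called and 23.5% were higher, and their median log2 fold change was 0.43 against 0.06 for all genes. Asns, the asparagine synthetase that serves as a standard ATF4 target, went from 1.39 ± 0.620 to 3.78 ± 1.56 CPM (SD, n = 8 each, log2 fold change 1.44 ± 0.30, adjusted p = 0.000346), and Trib3, a pseudokinase of the same response, from 6.96 ± 1.82 to 15.5 ± 2.85 CPM (1.15 ± 0.16, adjusted p = 2.57e-06). The mRNA of Atf4 itself, whose protein is set mainly by translation, fell from 210 ± 50.6 to 134 ± 14.8 CPM (-0.65 ± 0.13, adjusted p = 0.000193), and Atf5 fell by 1.07 on the log2 scale. Synthetase genes whose promoter windows held TTGCATCA did not share a direction there: Iars rose, Aars fell, and Tars and Yars stood at -0.06 and -0.10 without a call. The calls of Iars and Aars were lost with the erythrocyte covariate. In muscle, 9 of 23 listed genes were called, 7 of them higher (23.0% and 11.5% of all genes), with Asns at 1.80 ± 0.36 (adjusted p = 0.00181), while these 4 synthetase genes stood at -0.11 (Aars), 0.10 (Iars), 0.13 (Tars) and 0.12 (Yars), none called. Cortex gave 3 calls of 24 (7.21% of all genes), and mice 25-40 gave 0 calls in each tissue by the same test.

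Other listed genes of tRNA charging and delivery stand in short lists, to be read beside the 44.6% of all genes called in liver of mice 1-16. In liver of mice 1-16, Tufm, the mitochondrial elongation factor that brings charged tRNA to the ribosome, rose from 41.6 ± 6.70 to 128 ± 20.3 CPM (log2 fold change 1.62 ± 0.12, adjusted p = 1.26e-10), and the cytosolic Eef1a1 rose by 0.87 ± 0.12, which makes 2 of 3 delivery genes tested. Qrsl1, the catalytic subunit of the mitochondrial amidotransferase, fell from 6.39 ± 0.828 to 2.84 ± 0.813 CPM (-1.17 ± 0.18, adjusted p = 1.24e-05), and its partner Gatb rose by 0.41 ± 0.10, which makes 2 of 3 amidotransferase genes. Xpot, which exports tRNA from the nucleus, fell (-0.38 ± 0.08, adjusted p = 0.000759) as 1 of 2 export genes, and Pstk, of the selenocysteine route, fell (-0.45 ± 0.15, adjusted p = 0.0145) as 1 of 4. Among 4 proofreading genes, Dtd2 rose and Prorsd1 fell. None of 4 kinases of eIF2, which sense uncharged tRNA and other stress, was called, and neither of the 2 genes Myc and Mycn was. Mitochondrial ribosomal protein genes, the partners of the mitochondrial enzymes in translation, gave 44 calls of 77 in liver, 30 of them higher (44.6% and 23.5% of all genes), and 27 of 77 in muscle, 23 of them lower (23.0% and 11.6% of all genes). In muscle of mice 1-16, Myc (1.26 ± 0.23, adjusted p = 0.00048), Eif2ak4, the kinase that senses uncharged tRNA (0.49 ± 0.14, adjusted p = 0.0129), and Sepsecs (0.41 ± 0.10, adjusted p = 0.00733) rose, and Eef1a2, the muscle and neuron form of the elongation factor, fell (-0.33 ± 0.07, adjusted p = 0.0017), while Eef1a1 rose (0.38 ± 0.09, adjusted p = 0.00584). These were 1 of 1 Myc gene tested, 1 of 4 kinases, 1 of 4 selenocysteine genes and 2 of 4 delivery genes, and none of 3 amidotransferase, 2 export and 3 proofreading genes was called there.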

How the data were processed

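Poly-A RNA libraries that kept strand were sequenced on a NovaSeq instrument. Reads were aligned to GRCm39 with Hisat2 2.0.5 and counted per gene with featureCounts 1.5.0-p3 by the authors, whose deposited values are raw counts with gene lengths. From these counts, each tissue and set of mice was fitted apart with edgeR 4.0.16 (R 4.3.3; TMM scaling, filterByExpr with a minimum count of 10, robust quasi-likelihood test, Benjamini-Hochberg adjustment over all genes, threshold 0.05); an SE is the log2 fold change divided by the root of F. Interactions were fitted over both sets or all tissues. CPM of synthetase and listed genes is TMM-scaled unless it is called plain, and RPKM is that CPM per kilobase. Sums of cell type markers are plain CPM, scaled to the library total alone. Named genes are up to 6 higher and 6 lower called members a comparison by size, members with a called diet-by-set interaction, the 3 highest and 3 lowest per length, Tars, and the counterpart enzyme of each, and others are said to be chosen on their values. Alternatives were DESeq2 1.42.0, RLE factors, other filters, the replicate number as a block, an erythrocyte score as covariate, leaving out AL mouse 2 and IF mouse 10 and, chosen after seeing the data, an adipocyte score as covariate, leaving out the livers highest in erythrocyte or macrophage genes, and each library left out in turn. Scripts were tested on simulated data. Of the genes that fit the name rule, 1 is not reported here and enters no count of members, though it stays in the fits over all genes. The members and lists were chosen with earlier results of these data known. Columns of no sample numbered 0, and no library pair was identical.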

Additional observations from a re-analysis of the deposited data

Results flagged for a closer look

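Single libraries far from the rest of their group were looked for in each tissue, set and diet, for the members called in that tissue for the diet (in either set) or for its interaction with the set, the 3 highest and 3 lowest in AL level per length in either set, Tars and Lars2. In 13 of 208 such combinations of a member and a group of mice (6.25%), 1 library lay far from the rest, where chance gives about 1 in 20. In liver these were Lars2 in AL mouse 7 (1133 CPM, others 182 to 473), Pars2 in AL mouse 2 (4.30, others 1.29 to 2.29), Qars in IF mouse 10 (31.5, others 35 to 38.1), Cars2 in AL mouse 26 (18.1, others 10.9 to 13) and Vars in IF mouse 37 (103, others 66.1 to 80.2). In muscle they were Mars2 in IF mouse 9 (4.03, others 5.28 to 6.40), Aars2 in AL mouse 31 (27.9, others 21.2 to 23.7), Iars2 in IF mouse 34 (36.9, others 43.5 to 49.0), Wars in IF mouse 36 (40.3, others 45.3 to 49.6) and Wars2 in AL mouse 32 (5.94, others 3.38 to 4.25). In cortex they were Wars2 in AL mouse 3 (1.99, others 2.81 to 3.40), Lars2 in IF mouse 39 (63.9, others 35.9 to 48.1) and Wars2 in AL mouse 26 (4.26, others 2.39 to 3.27).

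The response to the diet differed between the sets of mice by an interaction test (edgeR, mice 25-40 minus mice 1-16, log2). In liver the differences were 0.90 for Wars, 0.80 for Ears2, 0.56 for Nars2, 0.54 for Mars1, 0.53 for Cars2, 0.52 for Dars, 0.50 for Yars, 0.49 for Sars2, 0.48 for Vars, 0.45 for Aars, 0.44 for Tars2, 0.43 for Sars, 0.40 for Lars, 0.28 for Qars, -0.66 for Hars, -0.53 for Kars and -0.48 for Iars2. In muscle they were 0.74 for Lars2, 0.48 for Aars2, 0.38 for Farsa, 0.28 for Aars, 0.28 for Wars and -0.42 for Iars2. The sex, the set and any batch cannot be told apart in these differences.

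Between tissues of mice 1-16, the largest differences in response by the same kind of test were, for liver minus cortex, 0.80 for Fars2, 0.67 for Hars, 0.61 for Kars, -0.73 for Wars, -0.62 for Cars2 and -0.61 for Nars2. For liver minus muscle they were 0.75 for Fars2, 0.67 for Kars, 0.63 for Hars, -0.95 for Nars2, -0.80 for Dars and -0.57 for Wars. For muscle minus cortex the 1 call was Farsb at 0.47.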

How the results depend on the processing

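In liver of mice 1-16 (18 calls), DESeq2 gave 19, the erythrocyte covariate 6 and single left-out libraries 15 to 19. In muscle of mice 1-16 (5 calls), the adipocyte covariate gave 8, unadjusted p 13 and left-out libraries 5 to 7. In cortex of mice 1-16 (3 calls), at least 10 counts in every library gave 5, DESeq2 6, unadjusted p 11, leaving out AL mouse 2 and IF mouse 10 gave 1, AL mouse 1 included gave 0, and left-out libraries 1 to 6, the lowest without AL mouse 2 or 3 or IF mouse 9, 10, 11 or 15 and the highest without IF mouse 12. In mice 25-40, unadjusted p gave 5 in liver, 6 in muscle and 5 in cortex, and DESeq2 gave 1 in cortex. For diet by tissue in muscle minus cortex, RLE factors gave 2 calls, both negative, in place of the 1 positive call of Farsb. The replicate block gave 18, 5 and 0 calls in liver, muscle and cortex of mice 1-16 and 0 in each tissue of mice 25-40. The numbers are not taken to pair the mice: the median correlation of same-numbered mice in liver, muscle and cortex was 0.016, 0.013 and -0.10 in mice 1-16 and -0.018, 0.074 and 0.061 in mice 25-40, where muscle held 4 of 8 pairs over 0.1, the highest at 0.457 and the lowest at -0.26. No comparison had every pair over 0.1, and 0 to 2 mice were most like their own number. No member called for the diet, or for the interaction of diet and set, turned its sign under any setting run for that comparison. Signs in the interactions of diet and tissue were not checked in this way. The cause of these shifts was not tested. Counts as low as those of Pars2 and Mars2 in liver limit what can be seen of them.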
